A study of Ovis aries with 40 samples.

Results

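The expression of 8 genes that mark alveolar type 1 cells was followed through lung development in sheep. The genes were AQP5, AGER, PDPN, HOPX, RTKN2, CLIC5, EMP2 and CAV1, chosen by symbol, 8 of the 24478 genes in the count tables. They and the marker lists used below were chosen with earlier results of these data known. Bulk RNA from proximal and distal lung was sequenced at gestational days 65, 80, 100 and 120 and from term animals, in 2 libraries for each of 20 conditions. WT animals were bred naturally. CF animals are CFTR-/- sheep, made by nuclear transfer from fetal fibroblasts of 1 male line in which CFTR exon 2 had been targeted. All were American Romney sheep. The CF groups therefore differ from WT by cloning as well as by CFTR genotype, and these cannot be told apart. WT term lambs were born before tissue was taken. By the labels both regions came from the same animals, and the 2 WT libraries at 100 days carry 1 animal label, so their spread may be technical.

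Alveolar type 1 cells are the very flat epithelial cells that cover most of the gas exchange surface. They arise late in gestation from the same distal progenitors as the surfactant-making type 2 cells, and thin out as the air spaces widen. AQP5 is a water channel of their apical membrane, AGER the receptor for advanced glycation end products, and PDPN (podoplanin) a membrane glycoprotein that lymphatic endothelium also carries. HOPX is a homeodomain protein that works as a transcriptional cofactor without binding DNA itself. RTKN2 is a scaffold protein used as a type 1 cell marker, and CLIC5 is a chloride intracellular channel family protein tied to the cortical actin cytoskeleton. EMP2 is a membrane protein of 4 spans, and CAV1 is the main coat protein of caveolae, abundant in endothelium too.

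In the Oar_v4.0 annotation AQP5 lies on chromosome 3 (135974463 to 135978295), PDPN on chromosome 12 (51982457 to 52019660), HOPX on chromosome 6 (71918282 to 71949670) and RTKN2 on chromosome 25 (18048270 to 18174868), all on the minus strand. CLIC5 (19158047 to 19322090, minus strand) and AGER (26248562 to 26252253, plus strand) are both on chromosome 20. EMP2 is on chromosome 24 (9258289 to 9271979) and CAV1 on chromosome 4 (51767710 to 51802530), on the minus strand. None of the 8 shared exon bases with another gene. The counted model of CAV1 spans only 605 bases, against 9021 for RTKN2, so levels are compared between genes per kilobase.

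Depth was 24670355 to 43700012 counted reads in WT libraries before term and 85773994 to 103139483 in CF libraries before term. At term it was alike, at 115937437 to 126749480 reads in WT and 117316905 to 119451372 in CF. All 8 genes had reads in every library, from 14 reads for AQP5 to 313653 for AGER. The tissue is described as epithelial in the series' design, but markers of mesenchyme (8 genes, COL1A1 among them) summed to 3621 to 25754 CPM (counts per library total, scaled by TMM) over the 40 libraries, against 527 to 2130.0 CPM for 10 epithelial markers. The values therefore describe whole lung tissue, in which fewer type 1 cells and less RNA per cell cannot be told apart. Airway content varied between libraries. In CF proximal day 120 replicate 2, the library that stood apart most, the airway secretory markers summed to 3683 CPM, against 129 in the other library of the group, and the basal cell markers to 316 against 9.73. At term CF distal replicate 2 had 312 CPM of basal cell markers, against 3.44 to 20.2 in the other CF libraries and 8.9 to 102 in WT, and at 80 days CF proximal replicate 2 had 165, against 3.67 to 31.7 in the other CF libraries. The part of airway content in the results was not tested.

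In WT lung all 8 genes were higher at term than at 65 days in both regions, and AQP5 rose most. Genes were called DEGs where edgeR's quasi-likelihood test gave a Benjamini-Hochberg adjusted p, taken over every gene in the fit, up to 0.001 and the absolute log2 fold change reached 0.58. All 8 were DEGs from 65 days to term in proximal lung, where 14.7% of 18186 genes were. In distal lung 6 of 8 were, against 11.7% of 18277 genes, and RTKN2 (adjusted p = 0.00113) and CAV1 (adjusted p = 0.00219) just missed the limit. The log2 fold changes of the 8 ran from 1.86 to 8.78 in proximal and from 1.69 to 8.82 in distal lung. The median of all genes tested was 0.02 in proximal and -0.00058 in distal lung. WT term libraries were also deeper than those before term. Over both genotypes and regions 17 of 32 tests from 65 days to term were DEGs. With counts thinned to equal depth 18 were, and with a gene length trend removed 19. Leaving out 1 library at a time ended 4 of these calls. Here and in what follows, where a group is left with 1 library, its spread is taken from the other groups of the fit and the lone library is assumed to vary like them. In proximal lung RTKN2 was lost without either library of day 65 or term or without day 100 replicate 1 (adjusted p up to 0.00547), and CAV1 without either of day 65 (up to 0.00239). In distal lung CLIC5 was lost without 3, day 65 replicate 2 and either of day 100 (up to 0.002), and PDPN without day 65 replicate 1 (0.00144). In 1 fit of all 40 libraries CAV1 in proximal lung (adjusted p = 0.0716) and CLIC5 in distal lung (adjusted p = 0.00136) were no DEGs, nor was RTKN2 in proximal lung with the replicate block (0.00108) or CLIC5 in distal lung with the WT day 100 libraries summed (0.00108).

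AQP5 was under 1 CPM at first and abundant at term. WT proximal lung had 0.368 and 0.659 CPM at 65 days, 2.27 and 1.2 at 80 days, 3.74 and 4.88 at 100 days, 70.5 and 45.6 at 120 days and 226 and 230.3 at term. WT distal lung had 0.623 and 0.549, then 2.35 and 1.3, 5.05 and 5.98, 75.2 and 60.6, and 231 and 310.3 CPM at the same days. In both regions each day's libraries lay above all libraries of the days before, as for 1.02% of genes in proximal and 0.856% in distal lung. The log2 fold change from 65 days to term was 8.78 ± 0.41 (SE) in proximal and 8.82 ± 0.35 in distal lung. The steepest step was from 100 to 120 days, by 3.78 ± 0.31 on the log2 scale in proximal lung (adjusted p = 0.000979, a DEG where 0.077% of genes were) and 3.62 ± 0.27 in distal lung (adjusted p = 0.00104, just outside the limit). The proximal step was no longer a DEG whichever of the 10 libraries was left out, with adjusted p from 0.00165 to 0.0258, at log2 fold changes of 3.41 to 4.07. Neither was it with the WT day 100 libraries summed as 1 (adjusted p = 0.0175).

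AGER and HOPX rose again between 120 days and term. AGER in WT proximal lung had 109 and 147 CPM at 65 days, 184 and 119.7 at 80, 276 and 279.7 at 100, 619 and 397 at 120 and 2098 and 1915 at term. HOPX had 13 and 9.59, 13.9 and 20.7, 63.8 and 58.2, 157 and 128, and 499 and 396 CPM. Both genes were higher in each term library than in any earlier one, as were 21.7% of genes in proximal lung. The same held for both in distal lung, as for 20.9% of genes. From 120 days to term AGER rose by 1.98 ± 0.27 on the log2 scale in proximal lung (adjusted p = 0.00139) and 2.31 ± 0.34 in distal lung (adjusted p = 0.00261). HOPX rose by 1.65 ± 0.21 (adjusted p = 0.00108) and 1.51 ± 0.29 (adjusted p = 0.00734). These passed an adjusted p of 0.05, as did 24.6% of genes in proximal and 25.8% in distal lung, but not the limit for DEGs. With AQP5 in both regions and PDPN and CLIC5 in proximal lung, 5 of 8 passed 0.05 in proximal and 3 of 8 in distal lung. HOPX in distal lung was lost without day 120 replicate 1 (adjusted p = 0.0573). At 120 days AGER stood at 25.3% of its term mean in proximal and 19.9% in distal lung, and HOPX at 31.8% and 34.6%.

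PDPN, RTKN2 and CLIC5 stood at 39.1% to 50.6% of their WT term means by 120 days. PDPN in WT proximal lung had 82.4 and 129.7 CPM at 65 days, 180.1 and 98.7 at 80, 271 and 252 at 100, 742 and 564 at 120 and 1722 and 1390.0 at term. RTKN2 had 6.97 and 11.1, 32.4 and 8.89, 26.8 and 29.8, 70.3 and 50.3, and 119 and 138 CPM. CLIC5 had 17.6 and 9.39, 14.9 and 24.2, 67.1 and 52.1, 199.6 and 120.4, and 450.1 and 367 CPM. In WT proximal lung each of the 3 had both term libraries above both of 120 days, as did 36.1% of genes there and 33% in distal lung. In WT distal lung CLIC5 was the exception, with 434 and 178 CPM at term and 180.0 and 117 at 120 days.

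EMP2 and CAV1 started high and were close to their term level by 120 days. EMP2 in WT proximal lung had 281 and 252 CPM at 65 days, 297 in both libraries at 80, 433 and 416 at 100, 896 and 635 at 120 and 1064 and 883 at term. CAV1 had 111 and 102, 112 and 109, 181 and 140.4, 446 and 373, and 501 and 301 CPM. At 120 days EMP2 stood at 78.7% and 79.4% of its term mean in proximal and distal lung, and CAV1 at 102% and 132%. The change of CAV1 from 120 days to term was -0.04 on the log2 scale in proximal lung (95% interval -0.53 to 0.45) and -0.43 in distal lung (-1.09 to 0.24), and it was not past an adjusted p of 0.05. Both genes rose from 100 to 120 days in proximal lung, EMP2 by 0.87 ± 0.18 (adjusted p = 0.0369) and CAV1 by 1.37 ± 0.22 (adjusted p = 0.0156), where 2.67% of genes passed 0.05. EMP2 was lost when any single library of days 65, 80 or 100 was left out, or day 120 replicate 1 (adjusted p up to 0.207, at log2 fold changes of 0.59 to 0.89). CAV1 was lost without either of day 100 or without day 120 replicate 1 (up to 0.141, at 1.17 to 1.55). With the WT day 100 libraries summed as 1 neither passed (0.216 for EMP2 and 0.103 for CAV1), nor did they in 1 fit of 40 libraries (0.0785 and 0.68).

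**Figure D1:**
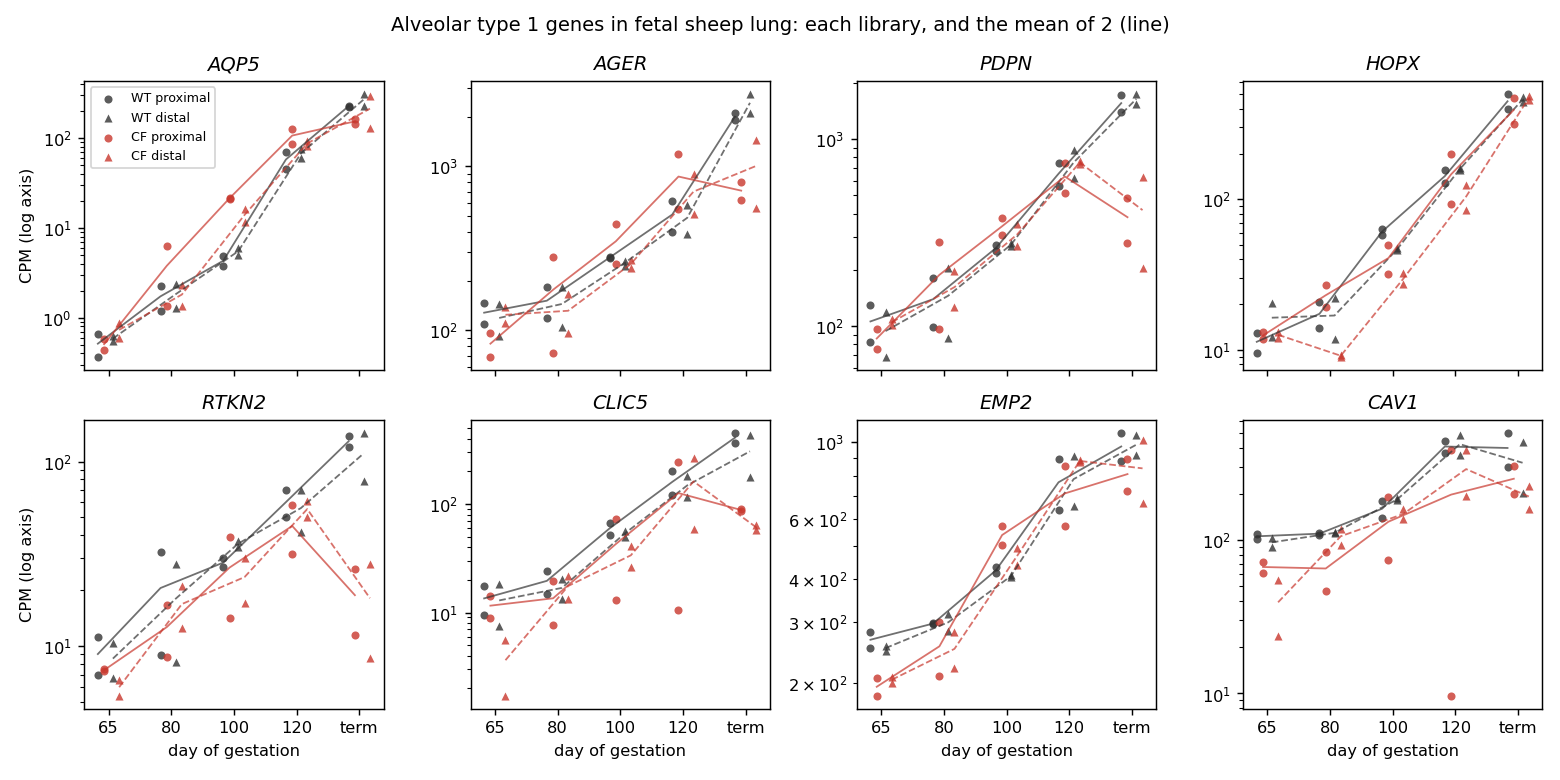
Normalized read counts of the 8 genes in CPM (log axis, TMM over 40 libraries) against day of gestation, 1 point a library and a line through the mean of 2, with WT in black, CF in red, proximal lung as circles and distal lung as triangles. AQP5 climbs from under 1 CPM to 129 CPM or more at term, and PDPN, RTKN2 and CLIC5 in CF lie below WT at term in both regions.

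In CF lung the 8 genes were also higher at term than at 65 days by their estimates, but fewer passed the limits. In CF distal lung AQP5 (8.22 ± 0.56 on the log2 scale, SE), HOPX (5.26 ± 0.24) and EMP2 (2.07 ± 0.26) were DEGs from 65 days to term, 3 of 8 where 4.7% of genes were. The other 5 passed an adjusted p of 0.05, as did 31.1% of genes. EMP2 was no DEG when any single library of days 65, 80 or 100 was left out, or term replicate 1 (adjusted p up to 0.00743). PDPN did not pass 0.05 without either library of day 65 (up to 0.0706), and RTKN2 passed, with 1 left out, only without term replicate 2 (otherwise up to 0.366). In CF proximal lung 0 of 8 were DEGs by edgeR, with 15 of 19690 genes (0.0762%) past the limits, and AQP5, AGER, PDPN, HOPX and EMP2 passed an adjusted p of 0.05, as did 11.6% of genes. With 1 library left out AGER was lost without either of day 65 or term (up to 0.193), PDPN without either of days 65, 100 or term (up to 0.248) and EMP2 without either of day 65 (up to 0.115). From 65 days to term 29 of 32 tests over both genotypes and regions had an unadjusted p under 0.05, against 28.8% to 53.2% of genes. DESeq2 called 28 of 32 where edgeR called 17, and of all genes it called 28.5% and 27.2% in WT proximal and distal lung and 10.3% and 20.1% in CF. Replicates of CF proximal lung differed widely, and at 120 days CAV1 had 388 and 9.68 CPM and CLIC5 242 and 10.6 CPM.

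From 120 days to term 0 of 8 genes passed an adjusted p of 0.05 in CF proximal lung, where 0.356% of all genes did. In CF distal lung 2 of 8, HOPX and AQP5, passed, where 23% of all genes did. No test was made between genes. AQP5 rose by 1.29 ± 0.41 on the log2 scale (adjusted p = 0.0495) and was lost without 9 of the 10 libraries (adjusted p up to 0.295). HOPX had 84.4 and 124 CPM at 120 days and 454 and 489 at term in CF distal lung, and rose by 2.18 ± 0.21 on the log2 scale (adjusted p = 0.00076, a DEG where 0.338% of genes were). It was no longer a DEG whichever of the 10 libraries was left out, with adjusted p from 0.00126 to 0.0063 and log2 fold changes of 1.93 to 2.45. PDPN had 765 and 735 CPM at 120 days and 631 and 204 at term. RTKN2 had 60.8 and 49.8 CPM at 120 days and 27.7 and 8.66 at term. For both genes the term libraries lay below the libraries of 120 days, and the same was true in CF proximal lung, while in WT the order was the opposite in both regions. Over all genes 3.99% in proximal and 4.66% in distal lung had both WT term libraries above and both CF term libraries below those of 120 days. The estimates in CF distal lung were -0.85 for PDPN (95% interval -1.88 to 0.17, adjusted p = 0.191) and -1.61 for RTKN2 (-2.80 to -0.43, adjusted p = 0.0541), so neither fall passed 0.05. CLIC5 had 265 and 58.7 CPM at 120 days and 64 and 58 at term, which is a difference carried by 1 library.

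The difference in change between genotypes was tested for each gene as an interaction, and 0 of 8 passed an adjusted p of 0.05 by edgeR in either region, where 1.78% of genes did in proximal and 9.31% in distal lung. At an unadjusted p under 0.05 there were 3 of 8 in proximal lung (AGER, PDPN, RTKN2) and 4 of 8 in distal lung (the same and CLIC5), against 15.7% and 25.9% of genes. By DESeq2 none reached the limits for DEGs, but at an adjusted p of 0.05, which 6.99% of genes passed in proximal and 17.4% in distal lung, PDPN (0.0436) and AGER (0.0432) passed in proximal lung and RTKN2 (0.0114), PDPN (0.0207), AGER (0.0268) and CLIC5 (0.04) in distal lung. The largest was RTKN2 in distal lung, whose change from 120 days to term was lower in CF by -2.57 ± 0.81 on the log2 scale (adjusted p = 0.0599). AGER differed by -1.79 ± 0.62 in distal lung (adjusted p = 0.0835) and HOPX by 0.66 ± 0.36 (adjusted p = 0.268). Single libraries moved these results across 0.05. Without CF distal term replicate 1, PDPN (-3.03, adjusted p = 0.00424), RTKN2 (-3.68, adjusted p = 0.00941), AGER (-2.68, adjusted p = 0.00817) and AQP5 (-1.46, adjusted p = 0.0425) passed in distal lung. RTKN2 there also passed without either WT day 80 library (0.04 and 0.0419), and CLIC5 without CF day 120 replicate 2 (-3.15, adjusted p = 0.0209). Without CF proximal day 120 replicate 1, which leaves the library that stood apart most, AGER (-2.72, adjusted p = 0.0213) and CAV1 (4.74, adjusted p = 0.00124) passed in proximal lung.

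At term PDPN and RTKN2 in both regions and CLIC5 in distal lung were lower in CF than in WT, and the CF means of AQP5, HOPX, EMP2 and CAV1, were 60.2% to 103% of the WT means. No test was made between genes. PDPN had 1722 and 1390.0 CPM in WT proximal lung and 486 and 278 in CF, and 1738 and 1539 in WT distal lung and 631 and 204 in CF. RTKN2 had 119 and 138 CPM in WT proximal lung and 26.3 and 11.5 in CF, and 143 and 78.8 in WT distal lung and 27.7 and 8.66 in CF. CLIC5 had 450.1 and 367 CPM in WT proximal lung and 85.7 and 90.5 in CF, and 434 and 178 in WT distal lung and 64 and 58 in CF. For these 3 genes every CF library was below every WT library in both regions, as for 29.6% of genes in proximal and 25.8% in distal lung. The CF mean was 24.6% and 25.5% of WT for PDPN in proximal and distal lung, 14.7% and 16.4% for RTKN2, and 21.6% and 19.9% for CLIC5.

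None of the 8 was a DEG between CF and WT at term by edgeR, in either region (0.339% of genes in proximal and 1.25% in distal lung were). At an adjusted p of 0.05 or less, 2 of 8 were lower in CF in proximal lung, where 3.49% of 20344 genes were, and 3 of 8 in distal lung, where 7.57% of 20084 were. PDPN differed by -2.02 ± 0.46 on the log2 scale in proximal lung (adjusted p = 0.0197) and -1.94 ± 0.48 in distal lung (adjusted p = 0.0147). RTKN2 differed by -2.77 ± 0.63 (adjusted p = 0.0193) and -2.57 ± 0.60 (adjusted p = 0.0108). CLIC5 differed by -2.30 ± 0.67 in distal lung (adjusted p = 0.0318) and by -2.21 ± 1.00 in proximal lung, where it did not pass (adjusted p = 0.234). The 2 regions come from the same animals and do not count as independent evidence. With AGER, 4 of the 8 had an unadjusted p under 0.05 in each region, as did 19.9% of genes in proximal and 30.6% in distal lung. DESeq2 called PDPN and RTKN2 as DEGs in both regions, and with them 4.59% of genes in proximal and 7.95% in distal lung.

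These differences rested on few libraries. Without term replicate 2 of CF, PDPN came to -1.70 in proximal (adjusted p = 0.172) and -1.38 in distal lung (adjusted p = 0.104), and RTKN2 to -2.32 (adjusted p = 0.172) and -2.00 (adjusted p = 0.0948). Without WT term replicate 1 neither gene passed 0.05 in either region, at adjusted p from 0.0518 to 0.101, and in proximal lung the same held without WT term replicate 2, at 0.0738 for PDPN and 0.1 for RTKN2. CLIC5 in distal lung was lost without either CF term library (adjusted p = 0.0826 and 0.17) and came to -1.55 without WT term replicate 1 (adjusted p = 0.215). It also did not pass in 1 fit of 40 libraries (adjusted p = 0.107). In proximal lung CLIC5 passed without either CF day 120 library, at -2.21 without replicate 1 (adjusted p = 0.0345) and -2.23 without replicate 2, the library that stood apart most (adjusted p = 0.034). The direction was the same in each of these fits.

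AGER was intermediate, with 2098 and 1915 CPM in WT proximal lung at term and 798 and 623 in CF. In distal lung it had 2122 and 2752 CPM in WT and 1456 and 556 in CF. The CF libraries were below the WT libraries in both regions. The difference of -1.50 ± 0.53 in proximal (adjusted p = 0.118) and -1.25 ± 0.44 in distal lung (adjusted p = 0.0688) did not pass 0.05. In distal lung 1 library decided it, with -2.15 (adjusted p = 0.00755) without CF term replicate 1 and -0.75 (adjusted p = 0.361) without CF term replicate 2. It also passed without either CF day 120 library (0.0462 and 0.0467), and in proximal lung without either CF day 80 library (0.0477 and 0.0475), at -1.50. By DESeq2 the adjusted p of AGER was 0.0425 in proximal and 0.0197 in distal lung. HOPX had 499 and 396 CPM in WT and 469.6 and 315 in CF proximal lung, and 479 and 439.9 in WT and 454 and 489 in CF distal lung. Its groups overlapped, and the 95% interval of the difference ran from -0.94 to 0.56 in proximal and from -0.48 to 0.61 in distal lung. EMP2 overlapped as well, with intervals from -0.82 to 0.28 and from -0.66 to 0.26. The intervals for AQP5 (-1.63 to 0.50 and -1.07 to 0.45) and CAV1 (-2.66 to 1.33 and -1.54 to 0.14) were wider and also held 0. AQP5 in distal lung came to -1.09 (adjusted p = 0.0497) without CF term replicate 1 and to 0.14 (0.85) without replicate 2. Both CF libraries were below both WT libraries for 5 of 8 genes in proximal lung (AQP5, AGER, PDPN, RTKN2, CLIC5), where 29.6% of genes were, and for 4 of 8 in distal lung (the same without AQP5), where 25.8% were.

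**Figure D2:**
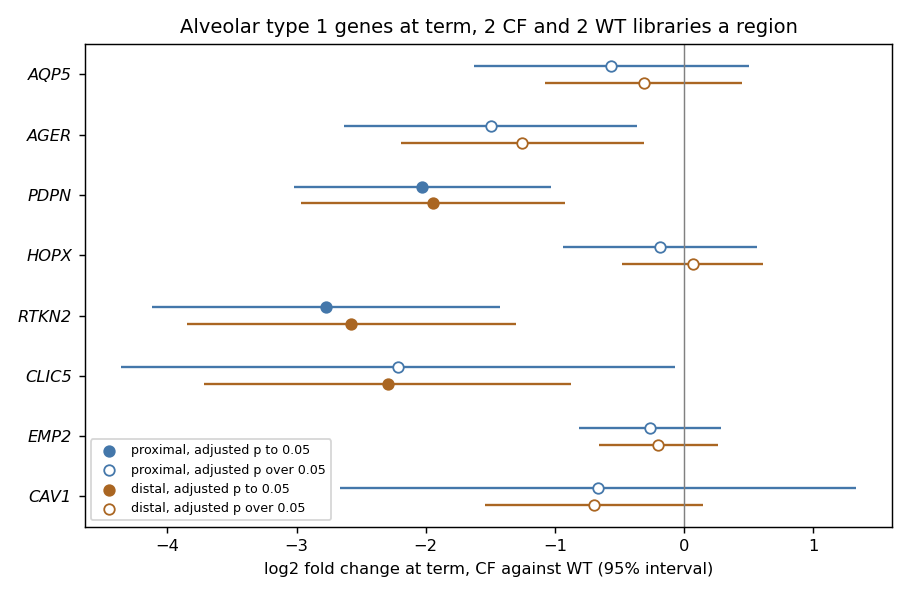
Log2 fold change at term, CF against WT, for the 8 genes in proximal (blue) and distal lung (brown), with 95% intervals from the edgeR fit as lines and filled points at an adjusted p of 0.05 or less. PDPN, RTKN2 and CLIC5 lie near -2 or below in both regions, and the intervals of AQP5, HOPX, EMP2 and CAV1 cross 0.

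Before term none of the 8 differed past the limits between genotypes, at depths that were lower in WT. At 65, 80, 100 and 120 days 0 of 8 passed an adjusted p of 0.05 by edgeR in either region. Of all genes 0.167%, 0.0885%, 0.383% and 1.35% passed at those days in proximal lung and 5.23%, 5.92%, 5.3% and 4.38% in distal lung. DESeq2 called none of the 8 as a DEG before term. Its share of all genes at those days was at least 0.511% and at most 1.66% in proximal lung. In distal lung that share was at least 3.04% and at most 3.32%. By edgeR 0, 0, 1 and 0 of 8 had an unadjusted p under 0.05 in proximal lung, against 10.6% to 17.1% of genes. In distal lung 2, 1, 2 and 1 of 8 did, against 20.1% to 22.7% of genes. Over all 5 days 15 of 80 tests did, 4 of 8 at term in each region among them, against 10.6% to 30.6% of genes. AQP5 at 100 days was the nearest, with 3.74 and 4.88 CPM in WT proximal lung and 21.1 and 21.8 in CF, and 5.05 and 5.98 in WT distal lung and 16.4 and 11.5 in CF. Both CF libraries were above both WT libraries in each region, as for 24.5% of genes in proximal and 37.4% in distal lung. The difference was 2.31 ± 0.53 on the log2 scale in proximal (adjusted p = 0.0773) and 1.33 ± 0.38 in distal lung (adjusted p = 0.0557). It passed 0.05 by DESeq2 in both regions (0.00202 and 0.0133, with 4.77% and 12.4% of genes) and with a gene length trend removed (0.043 and 0.035), in distal lung with no filter (0.0478), thinning (0.0461) and the replicate block (0.0301), in 1 fit of 40 libraries in proximal lung (0.00825), and without single libraries of CF days 80 or 120 in proximal lung (0.0317 to 0.0335) and of CF day 120 or term in distal lung (0.0191 to 0.0494). HOPX in distal lung went the other way at 80, 100 and 120 days, with CF libraries below WT libraries at each day (30.6%, 32.8% and 20% of genes), for example 9 and 9.24 CPM in CF and 11.8 and 21.9 in WT at 80 days. HOPX at 80 days passed 0.05 by DESeq2 (0.015, with 14.2% of genes), with thinning (0.0427), the length trend removed (0.0373), the replicate block (0.0496) and without single libraries (0.0386 to 0.0457). At 65 days CLIC5 and CAV1 in distal lung passed by DESeq2 (0.0318 and 0.0146, with 11.5% of genes) and with the replicate block (0.0361 and 0.00977), and CAV1 without single libraries (0.0439 to 0.0474). In proximal lung at 120 days CLIC5 (-3.92, adjusted p = 0.00663) and CAV1 (-5.40, adjusted p = 0.000196) passed without CF replicate 1, which leaves the library that stood apart most. Gene length also moved with genotype here. The slope of log2 level per doubling of length in distal lung at 80 and 100 days was 0.13 to 0.24 in CF and 0.0019 to 0.029 in WT. At 120 days it was 0.23 and -0.28 in the CF proximal libraries and 0.28 and -0.04 in the CF distal ones, against -0.02 to 0.07 in WT.

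Averaged over the 5 days, 0 of 8 were DEGs between genotypes (2.61% of genes in proximal and 5.94% in distal lung were), and 2 and 4 of 8 passed an adjusted p of 0.05, against 21.8% and 31.2% of genes. AQP5 was higher in CF by 0.75 ± 0.24 in proximal lung (adjusted p = 0.0365) and RTKN2 lower by -0.86 ± 0.27 (adjusted p = 0.0337). In distal lung HOPX (-0.49 ± 0.11, adjusted p = 0.00501), CAV1 (-0.59 ± 0.18, adjusted p = 0.0207), CLIC5 (-0.92 ± 0.29, adjusted p = 0.0258) and RTKN2 (-0.76 ± 0.25, adjusted p = 0.0342) were lower in CF. HOPX and CAV1 in distal lung passed whichever library was left out. AQP5 and RTKN2 in proximal lung were each lost without 12 of 20 (adjusted p up to 0.0866 and 0.0914), RTKN2 in distal lung without 9 (up to 0.0898) and CLIC5 without 6 (up to 0.0615). These were libraries of both genotypes, WT term replicate 1 in each case. Other averages passed only without 1 library. Without CF proximal day 120 replicate 1 CAV1 in proximal lung moved from -0.68 to -1.55 (adjusted p = 6.85e-05) and CLIC5 from -0.76 to -1.47 (0.00183), and in distal lung PDPN (-0.52, 0.0327) passed without CF term replicate 1 and AQP5 (0.42, 0.042) without CF term replicate 2. CAV1 did not pass with a gene length trend removed (adjusted p = 0.233) or in 1 fit of 40 libraries (adjusted p = 0.22), and in that fit CLIC5 did not either (adjusted p = 0.0901). With the WT day 100 libraries summed, AQP5 (0.0607) and RTKN2 (0.0579) in proximal lung and RTKN2 in distal lung (0.0515) did not pass.

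With all libraries no difference between proximal and distal lung passed the limits in these genes. At each of the 5 days 0 of 8, and 0 of 20779 genes (0%), were DEGs or passed an adjusted p of 0.05 between regions by edgeR, and DESeq2 called 0 of the 8 at any day. A single test of the 40 had an unadjusted p under 0.05, HOPX at 80 days (-0.69 ± 0.23, distal lower), where 1.43% to 2.39% of genes did at each day. At term the 95% interval of the distal minus proximal log2 difference ran from -0.34 to 1.12 for AGER, from -0.59 to 0.79 for PDPN, from -0.30 to 0.37 for EMP2 and from -1.75 to 0.81 for CLIC5. The test uses the spread between animals. With the animal as a block in the edgeR fit, 0 of 40 tests were DEGs, and HOPX at 80 days had -0.71 ± 0.22 (adjusted p = 0.986). The root mean square difference in log2 CPM was taken over 13710 genes of an average log2 CPM of at least 1. Over the 20 pairs of regions of 1 animal it was 0.34 at the median (0.222 to 1.15), against 0.523 (0.223 to 1.63) over the 20 pairs of replicates. Of the 8 genes EMP2 was the steadiest, with a median difference between regions of 0.0773 and between replicates of 0.177. The widest differences between regions were in CF day 120 replicate 2, where CAV1 had 9.68 CPM in proximal and 196 in distal lung, and in CF day 65 replicate 2, where CLIC5 had 14.3 and 1.71.

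**Figure D3:**
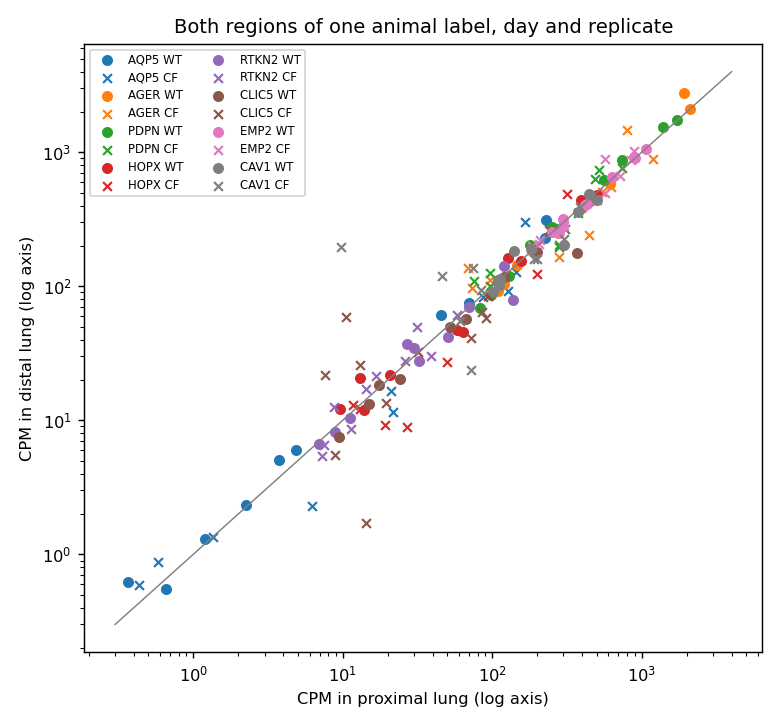
CPM in distal lung against CPM in proximal lung (both log axes) for the 8 genes, 1 point for each gene and animal label at each day, genes by colour, with WT as circles, CF as crosses and the line of equal levels in grey. Points follow the line, and the CF crosses farthest from it are CAV1 at 9.68 CPM proximal with 196 distal and CLIC5 at 14.3 proximal with 1.71 distal.

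Per kilobase of counted exon, CAV1 led at 65 days and AGER at term in WT proximal lung. In WT proximal lung at 65 days CAV1 had 176 CPM per kilobase, EMP2 69.0 and AGER 61.4, and AQP5 was last with 0.37. At term AGER led with 962 ± 62.1 (SD, n = 2), followed by CAV1 with 663 ± 233 and PDPN with 602 ± 91.0, and RTKN2 was last with 14.3 ± 1.504. CAV1 and PDPN overlapped, as did AQP5 (164 ± 2.27) with CLIC5 (149.8 ± 21.4) and CLIC5 with HOPX (126 ± 20.5), so their order is not set by these libraries. In CF proximal lung at term CAV1 (417 ± 122) and AGER (341 ± 59.3) overlapped at the top and PDPN stood at 148 ± 56.9.

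Other genes of type 1 cells were read from a list of 24, of which 23 were in the tables. From 65 days to term 16 of 23 were DEGs upward and 1 downward in each region of WT (8.15% of all genes were upward in proximal and 6.43% in distal lung), with a median log2 fold change of 2.15 in proximal and 2.32 in distal lung. The 1 that fell was IGFBP2, a secreted binding protein for insulin-like growth factors, by 3.26 ± 0.26 in proximal lung (adjusted p = 2.35e-05) and 2.95 ± 0.21 in distal lung (adjusted p = 2.26e-05). It was named after its values were seen. In CF distal lung 9 of 23 were DEGs upward (2.42% of all genes) and in CF proximal lung 1 (0.0356%), with medians of 1.82 and 1.61.

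At term the rest of the list was also lower in CF for part of its genes. At an adjusted p of 0.05 or less 6 of 23 were lower and 0 higher in proximal lung (3.49% of all genes were lower), and 11 of 23 were lower and 0 higher in distal lung (7.57% lower), with medians of -0.67 and -0.81, against -0.03 and 0 over all genes tested. The following were named after their values were seen. SEMA3E, a secreted semaphorin, had 130.04 and 69.8 CPM in WT distal lung at term and 16.3 and 11.9 in CF, and with FSTL3, a follistatin-like inhibitor of activins, it was a DEG there (-2.79 ± 0.38, adjusted p = 0.000387, and -1.96 ± 0.27, adjusted p = 0.000467). COL4A3 and COL4A4 encode collagen IV chains of the alveolar basement membrane. COL4A4 had 859 and 452 CPM in WT distal lung and 137 and 66.2 in CF (-2.66 ± 0.50, adjusted p = 0.00344), and COL4A3 differed by -1.93 ± 0.51 (adjusted p = 0.0219). MYRF, a membrane-bound transcription factor, differed by -2.37 ± 0.54 in distal lung (adjusted p = 0.00943), and CLDN18, a tight junction protein of alveolar epithelium, by -1.20 ± 0.25 (adjusted p = 0.00659).

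Type 2 genes and general epithelial markers were set beside these. A list of 13 alveolar transcription factors and regulators also held target genes such as CYR61 and CTGF. Of these 13 and of 13 type 2 genes, 0 passed an adjusted p of 0.05 at term by edgeR in either region. Of all genes 6.09% passed in proximal and 15.2% in distal lung. The medians were -0.18 and -0.03 for the regulators and -0.24 and -0.30 for the type 2 genes. SFTPC, a surfactant protein of type 2 cells, differed by -0.06 ± 0.71 in proximal and 0.20 ± 0.63 in distal lung (adjusted p = 0.982 and 0.871). SFTPB differed by -0.58 ± 0.32 and -0.50 ± 0.36 (adjusted p = 0.342 and 0.375). Of the epithelial markers EPCAM, an adhesion protein of all lung epithelium, differed by -0.14 ± 0.22 and -0.01 ± 0.15 (adjusted p = 0.787 and 0.973), and NKX2-1, a transcription factor of lung epithelium, by 0.15 ± 0.25 in distal lung (adjusted p = 0.733). Summed over 10 epithelial markers the level at term was 1784 to 2130.0 CPM in WT and 793 to 1852 in CF, and at an adjusted p of 0.05 none of the 10 was lower in CF in proximal lung and 3 were in distal lung (7.57% of all genes lower). These, named after their values were seen, were KRT8, a keratin of simple epithelium (-1.08 ± 0.19, adjusted p = 0.00242), CLDN7, a tight junction protein (-0.88 ± 0.21, adjusted p = 0.0122), and ESRP1, an epithelial splicing factor (-0.73 ± 0.22, adjusted p = 0.0386). The medians of the 10 were -0.53 and -0.69. The difference between the lists was not tested.

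**Figure D4:**
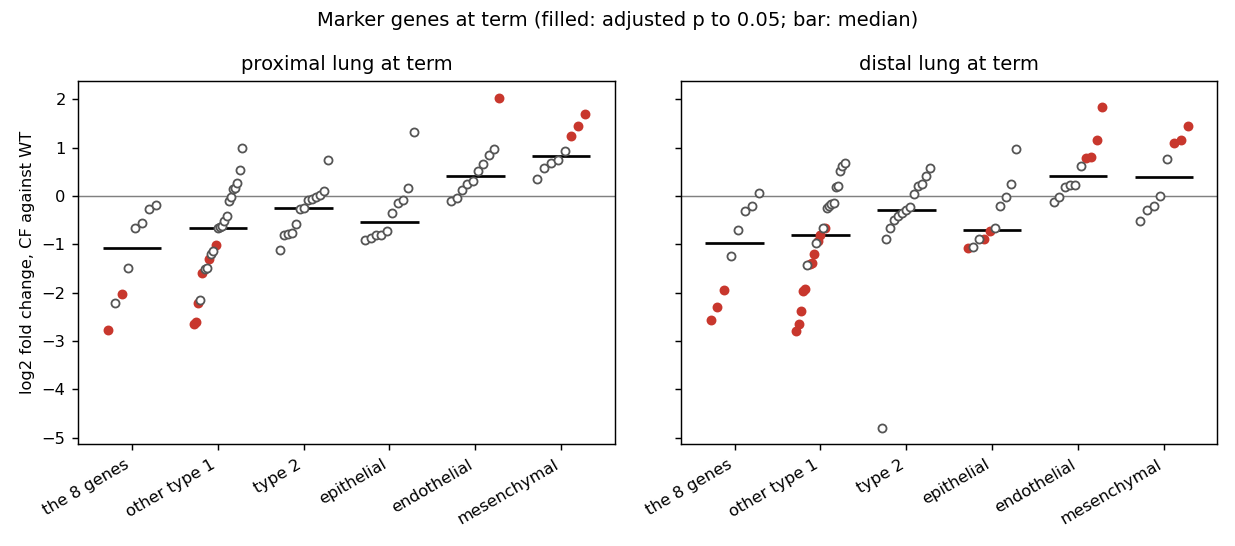
Log2 fold change at term, CF against WT, of the 8 genes and of 5 marker lists in proximal and distal lung, 1 point a gene, with points filled where the adjusted p reached 0.05 and a bar at the median. The 8 genes have medians of -1.08 and -0.98 and the other type 1 genes of -0.67 and -0.81, while the endothelial markers have medians of 0.42 in both regions.

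Markers of other cell types were compared between genotypes at term. Endothelial markers summed to 1558 to 2300 CPM in WT and 2424 to 2864 in CF (10 genes, none at 0 in any library), and mesenchymal markers to 3621 to 6785 in WT and 3875 to 9427 in CF. Of 8 mesenchymal genes 3 were higher in CF in each region at an adjusted p of 0.05, where 2.6% of all genes were higher in proximal and 7.65% in distal lung, PDGFRA of lung fibroblasts by 1.25 ± 0.33 in proximal and 1.15 ± 0.23 in distal lung (adjusted p = 0.038 and 0.00443). Of 10 endothelial genes 1 was higher in proximal and 4 in distal lung, and 0 were lower. Of 5 genes of alveolar capillaries 1 was higher in each region. Of 5 mesothelial genes 0 passed in proximal lung and 1 was lower in distal lung, and of 6 airway secretory genes 0 and 1 were lower. Lymphatic markers summed to 1239 and 1396 CPM in CF term replicate 2 and to 195 to 296 in the other 6 term libraries. PDPN, which lymphatic endothelium also carries, was lowest in those same 2 libraries, at 278 and 204 CPM. The part of cell makeup in the difference between genotypes was not tested. The log2 level also leaned on gene length at term, with slopes per doubling of length of -0.25 to -0.15 in CF and -0.29 to -0.08 in WT. With that trend removed, PDPN and RTKN2 in both regions and CLIC5 in distal lung still passed an adjusted p of 0.05 at term. For the change to term 0 of 8 passed.

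Relatives of the 8 genes were read from lists of caveola proteins and of family members. All 6 caveola genes were higher at term than at 65 days in WT by their estimates, 3 as DEGs in proximal and 4 in distal lung (8.15% and 6.43% of all genes were upward), with medians of 1.67 and 1.73, close to CAV1 at 1.90 and 1.69. CAV2, the partner of CAV1 in the caveolar coat, rose by 1.99 ± 0.18 in WT proximal lung (adjusted p = 4.03e-05) and 1.82 ± 0.20 in CF distal lung (adjusted p = 0.000269). At term 1 of the 6 was lower in CF and 0 higher in each region at an adjusted p of 0.05. SDPR (cavin 2) was lower in CF by -1.43 ± 0.27 in proximal and -1.20 ± 0.25 in distal lung (adjusted p = 0.00847 and 0.0056), while CAV2 differed by -0.67 ± 0.25 and 0.19 ± 0.24 (adjusted p = 0.134 and 0.64). Of 12 family relatives 3 were DEGs upward and 0 downward from 65 days to term in WT proximal lung and 2 and 0 in WT distal lung. At term 0 of 12 passed 0.05 between genotypes in proximal lung, and 2 were higher in CF and 0 lower in distal lung. Among the aquaporins AQP1, the water channel of capillary endothelium, rose by 4.53 ± 0.25 in WT proximal lung (adjusted p = 3.34e-06), where AQP5 rose by 8.78. AQP4 changed by 1.89 ± 1.16 there, not past 0.05 (adjusted p = 0.212), and CLIC4, a family member of CLIC5, by 0.04 ± 0.13 (adjusted p = 0.833). EMP1, a relative of EMP2, rose by 2.40 ± 0.18 (adjusted p = 1.63e-05).

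Across the 40 libraries the 8 genes fell into no single pattern. The following correlations of log2 CPM share libraries, depth and the common rise with gestation and are given as a description. AQP5 ran closest to EMP2 (Pearson r = 0.96), AGER (0.94) and HOPX (0.94), and PDPN ran with RTKN2 (0.93). For RTKN2, PDPN had the highest r of the 11820 genes compared, which leave out symbols beginning with LOC. CAV1 ran closest to CLIC5 (0.88) and had the lowest values with AGER (0.48), HOPX (0.55) and AQP5 (0.56). CAV1 and CLIC5 were both low in CF proximal day 120 replicate 2, the library that stood apart most. There they lay 5.32 and 4.51 below replicate 1 on the log2 scale. The part of that library in these correlations was not tested.

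**Figure D5:**
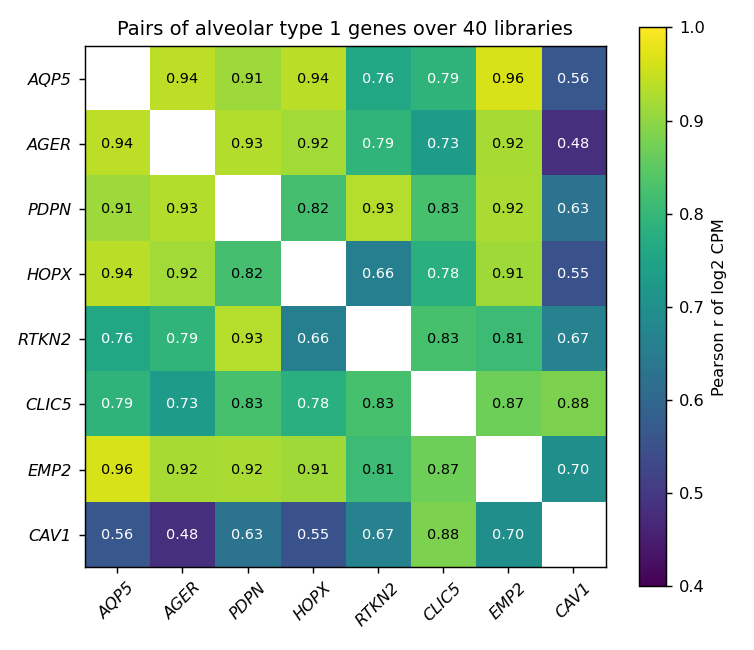
Pearson r of log2 CPM over 40 libraries for each pair of the 8 genes, with the colour scale from 0.4 to 1. Values run from 0.48 for AGER with CAV1 to 0.96 for AQP5 with EMP2, and the row of CAV1 is low except for CLIC5 at 0.88.

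Outside the 8, the most similar gene was SPOCK2, an extracellular proteoglycan on the type 1 list, for both AQP5 (r = 0.98) and EMP2 (0.97). AQP5 was followed by BCAM (0.97), a laminin-binding adhesion molecule, and the surfactant gene SFTPA1 (0.97). The 3 nearest to PDPN were MBOAT1 (0.96), COL4A4 (0.95) and ARHGEF26 (0.95), and those nearest to RTKN2 were ZNF365 (0.93), ARHGEF26 (0.92) and MBOAT1 (0.92). AGER had TLCD1 (0.97), CYP17A1 (0.96) and NOXO1 (0.96), and HOPX had C5H19orf57 (0.96), TSPAN15 (0.96) and AOX1 (0.96). CLIC5 had ARAP2 (0.98), ENPP4 (0.97) and TGOLN2 (0.97), and CAV1 had SLC44A2 (0.96), EFCAB14 (0.94) and MSN (0.94), which encodes moesin, a linker of membrane and actin. EMP2 had SLC1A1 (0.97) and KIAA0040 (0.97) after SPOCK2.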

How the data were processed

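The deposited values are raw counts of reads per gene. The authors aligned 100 bp paired reads from oligo dT primed libraries to Oar_v4.0 with STAR (version 2.6 in the submitters' processing notes, another in the methods) and counted with featureCounts 1.6.3. Strand and the treatment of mates are not given in the sources used here. Among counts from 1 to 20, 69.2% to 85.8% in a library were even.

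The tests used edgeR 4.0.16 under R 4.3.3, with TMM scaling, filterByExpr (minimum count 10, minimum total 15), glmQLFit and glmQLFTest. Time courses were fitted on 10 libraries, CF against WT on 20 a region, and regions on 40. CPM used TMM over 40 libraries. Correlations used a prior count of 2 and genes of an average log2 CPM of at least 1 with a symbol not beginning with LOC. All 8 genes were named. Of other lists counts were given, with named relatives and fixed marker genes, and the 3 nearest genes of each member by Pearson r. Genes named after their values were seen are marked as such. The members and lists were chosen with earlier results of these data known. The fits were tested on simulated data. Alternatives were DESeq2 1.42.0, RLE, no filter, bias-adjusted quasi-likelihood, thinning, a replicate block, 1 fit of 40 libraries, summed WT day 100 libraries and each library left out, and, chosen after seeing the data, removal of a gene length trend and crossed replicate numbers. The regions are paired by animal label, and deviations of same-numbered libraries correlated from -0.47 to 0.85 between regions. WT day 65 replicate 2 and CF day 100 replicate 2 carry the same animal label, and the title set their group.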

Additional observations from a re-analysis of the deposited data

Results flagged for a closer look

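PDPN and RTKN2 were singled out because both libraries of each group moved in opposite directions in WT and CF between 120 days and term. In WT both term libraries lay above both libraries of 120 days, and in CF both lay below, in each region, as for 3.99% of genes in proximal and 4.66% in distal lung. The CF minus WT difference in that change was -1.98 on the log2 scale for PDPN in proximal lung (adjusted p = 0.143 by edgeR's interaction test) and -1.96 in distal lung (adjusted p = 0.0754). It was -2.34 for RTKN2 in proximal lung (adjusted p = 0.193) and -2.57 in distal lung (adjusted p = 0.0599). None passed 0.05 there. By DESeq2 PDPN passed in both regions (adjusted p = 0.0436 and 0.0207) and RTKN2 in distal lung (0.0114). In distal lung both passed with the replicate block (0.0371 and 0.0163) and without CF term replicate 1, at -3.03 for PDPN (0.00424) and -3.68 for RTKN2 (0.00941), and RTKN2 passed with no filter on low counts (0.0463) and without either WT day 80 library (0.04 and 0.0419). The call thus depends on the tool and on single libraries. Groups of 2 libraries are too small to test single libraries as outliers.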

How the results depend on the processing

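Leaving out 1 library at a time, the tests past the limits numbered 13 to 17 of 32 for any change over a time course (16 with all libraries), 15 to 19 of 32 from 65 days to term (17), 1 to 4 of 128 between consecutive days (2), 0 to 1 of 80 for CF against WT (0), 0 to 1 of 16 for the average of days (0), 0 of 16 for the change to term and 0 to 1 of 40 between regions (0). The single calls all concern CAV1 without CF day 120 replicate 1, which leaves replicate 2 with 9.68 CPM in proximal lung. DESeq2 called 29, 28 and 26 in the first 3 families and 4 for CF against WT. An adjusted p of 0.05 with no fold limit gave 27, 29, 21, 5 and, for the average of days, 6. Between consecutive days no filter gave 7, the bias-adjusted quasi-likelihood 7 and summed WT day 100 libraries 1. The cause was not tested.

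Across days the replicate numbers share only a number, and the replicate block left 1 call between consecutive days, 17 over time courses and 19 from 65 days to term. The proximal DEG of AQP5 from 100 to 120 days was lost with it. The animal block between regions gave 0 of 40, and crossing its numbers where the correlations were negative gave 0. No result past 0.05 turned direction. Over 125 results of time and genotype the estimate changed sign under another setting for 1, not past 0.05 (CAV1, change to term in proximal lung, 0.38 to as low as -0.29) and with 1 library left out for 10, none past 0.05, among them CLIC5 in the same comparison (-1.87 to as high as 1.70). CLIC5 in distal lung at term did not pass in 1 fit of 40 libraries (adjusted p = 0.107). With 2 libraries a group some intervals are wide, as for CAV1 in proximal lung at term (-2.66 to 1.33).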
